A study of Mus musculus with 20 samples.

Results

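Nafion byproduct 2, also called PFESA-BP2, is a perfluorinated ether sulfonate made as a side product of fluoropolymer manufacture, and its lowest 2 doses in this study are described here as a single group. Livers from 8 male Balb-C mice given 0.03 or 0.3 mg/kg per day, each sequenced on its own, were treated as 1 group and set against livers from 4 male Balb-C control mice given no compound. Members were chosen by the dose in the labels alone, 4 mice at 0.03 mg/kg, 4 at 0.3 mg/kg and 4 at 0 mg/kg, which makes 12 of the 20 libraries in the series. Dosing was a daily gavage over 7 days in mice aged 10 to 12 weeks, which carried no engineered allele that the labels name. The protocols give deionized water as the control's fluid, whereas the control titles carry the word DMSO, so the vehicle is not settled here. Each library is the whole-liver RNA of a single animal, counted with TempO-Seq, an assay in which detector oligonucleotides that anneal side by side on a transcript are ligated, amplified and sequenced. The comparison asks which transcripts differ from control when both low doses are treated as a single group, with any difference between the doses counted as spread within the group.

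Liver senses foreign and fatty compounds through nuclear receptors. The constitutive androstane receptor (CAR) and the pregnane X receptor (PXR) switch on cytochrome P450 enzymes, their electron donor and conjugating enzymes, whereas the peroxisome proliferator-activated receptor alpha (PPARalpha) switches on fatty acid oxidation, and perfluorinated acids are known ligands or activators in this receptor family. Bile acid synthesis starts at the enzyme Cyp7a1, and sterol and fatty acid synthesis are driven by the SREBP transcription factors. Resident macrophages (Kupffer cells), lymphocytes and endothelial cells share the tissue with the hepatocytes, and in RNA from whole liver fewer cells of a type and less RNA per cell cannot be told apart.

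Total counts per library ran from 8836482 to 10310931 in the low-dose livers and from 7123004 to 9890662 in the control livers, a difference in means of 1104000 counts (two-sided exact permutation test over all 495 ways to choose the control livers, p = 0.0242). The mean correlation of a liver with others of its own single dose was 0.980 to 0.988 in low-dose livers and 0.981 to 0.983 in control livers. With livers of the other doses among the 12 it ran from 0.978 in control replicate 1 to 0.986 in control replicate 3. Control replicate 3 thus correlated more with the dosed livers than with the other controls, at 0.981. The hepatocyte markers Alb, Ttr and Hnf4a were detected in all 12 livers. Alb was at 5992 to 10317 CPM in low-dose livers and 10001 to 11478 CPM in control livers, where CPM is the count per 1000000 counts of the scaled library total. Ttr was at 1880 to 2636 CPM in low-dose livers and 1766 to 2838 CPM in control livers. Hnf4a was at 150 to 266 CPM in low-dose livers and 111 to 217 CPM in control livers, with medians of 196 and 141 CPM. The pancreatic markers Cela2a and Cpa1 and the adipocyte marker Lep were at 0 in all 8 low-dose livers and in 3 of the 4 control livers. Control replicate 2 stood apart from the other 11 livers. It gave counts at 1250 of the 1647 probes for olfactory and vomeronasal receptors, genes of the nose that liver is not known to use, against 58 to 389 such probes in the low-dose livers and 237 to 431 in the other control livers. Gm17535 and Gm10717, predicted genes named after their values were seen, were also highest there, at 42.0 and 1706 CPM, against up to 2.10 and 98.1 CPM in the low-dose livers. Control replicates 1, 3 and 4 had 10.3, 10.8 and 2.86 CPM of Gm17535 and 499, 403 and 91.3 CPM of Gm10717. The log2 differences of these genes, low doses minus control, were -4.22 and -4.02, and -3.20 and -2.99 without control replicate 2. The receptor probes summed to 1160 CPM in control replicate 2, against 7.47 to 69.9 in the low-dose livers and 46.2 to 89.4 in the other control livers. Only 2 of these probes passed the filter on low counts, and results are given with and without that library below. Plate columns followed dose, so the well position and the dose cannot be told apart, and 0.3 mg/kg replicate 4 was the only one of the 12 in another plate row. Levels of single genes are compared only within a probe, since probes differ in efficiency. The summed level of a list is compared between livers, and the probes with most counts weigh most in it.

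**Figure D1:**
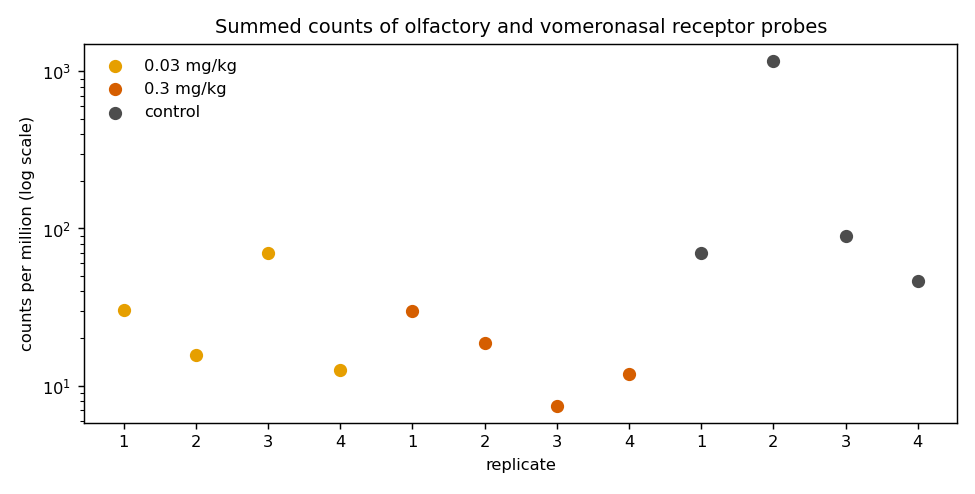
Summed counts of olfactory and vomeronasal receptor probes in CPM of each unscaled library total (log scale), for the 4 livers at 0.03 mg/kg, the 4 at 0.3 mg/kg and the 4 controls, 1 point per liver. Control replicate 2 sits at 1160 CPM, above the other 11 livers at 7.47 to 89.4.

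No transcript passed the test when the low doses were pooled. Of 13484 probes for 9703 genes, 0 (0%) had an adjusted p under 0.05 in edgeR's quasi-likelihood test with Benjamini-Hochberg adjustment, while 1702 probes (12.6%) had an unadjusted p under 0.05, of which 858 (6.36%) were higher and 844 (6.26%) lower in the low-dose livers. DESeq2, run without edgeR's filter on low counts, called 57 of 17651 probes in the same libraries, 19 higher and 38 lower. Its calls included Cyp7a1, Por and Fabp2 (adjusted p = 6.39e-05, 0.00025 and 0.00105 by DESeq2). With control replicate 2 left out it called 4 of 25610 probes. The number of probes at an unadjusted p under 0.05 was 854 without control replicate 1, 1083 without control replicate 2, 2568 without control replicate 3 and 1666 without control replicate 4. Scaling by total counts alone, which moves the median difference of all probes to 0.10 on the log2 scale, gave 5 calls and a different split of the probes at an unadjusted p under 0.05, with 1560 higher and 295 lower. In edgeR's test of the pooled doses the smallest adjusted p was 0.082, shared by Por, Cyp7a1 and Fabp2. The median standard error (SE) of a log2 difference was 0.18.

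Among genes, each represented by its most abundant probe, 533 (5.49%) were higher and 711 (7.33%) lower at an unadjusted p under 0.05. In 49 genes (0.505%) all 8 low-dose livers lay above all 4 control livers, and in 52 genes (0.536%) all 8 lay below. The lean differed with abundance. Among probes with a mean of 33.3 CPM or more, 183 were higher and 417 lower, whereas among those from 3.06 to 9.30 CPM, 260 were higher and 133 lower. Where a gene at an unadjusted p under 0.05 had further probes, 82.7% of the 191 other probes of the higher genes had the same sign, and 67.9% of the 305 other probes of the lower genes did. All probes of such a gene come from the same 12 livers, so this describes the probes and adds no animals.

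**Figure D2:**
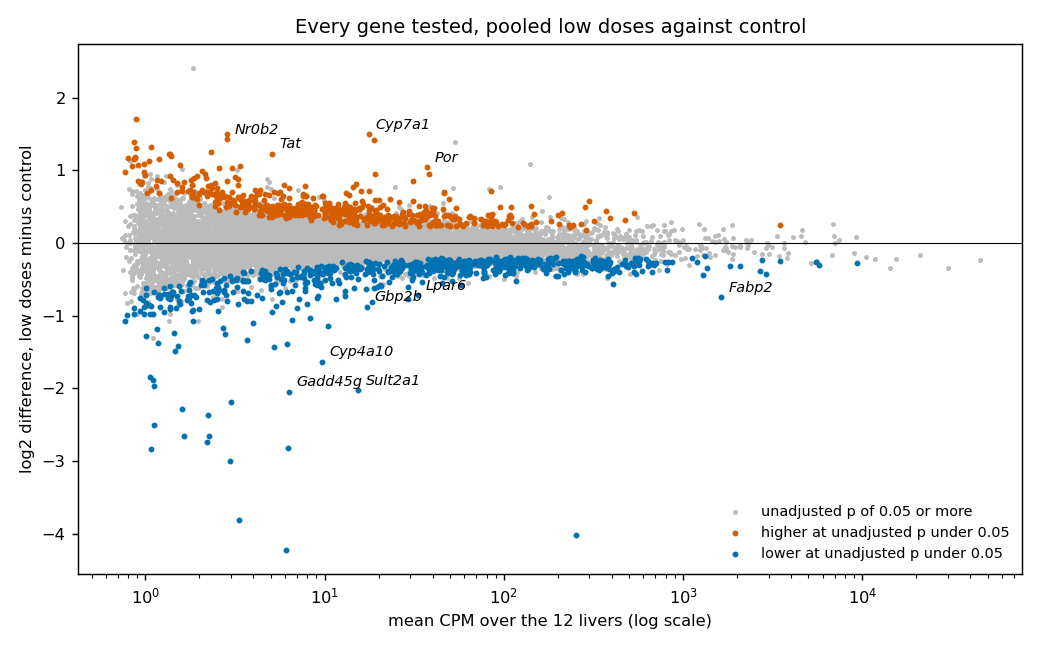
Log2 difference, low doses minus control, against the mean CPM over the 12 livers (log scale) for each of 9703 genes, with orange and blue points for genes higher and lower at an unadjusted p under 0.05. None passed edgeR's adjusted threshold, and Cyp7a1, Nr0b2 and Por stand out above while Fabp2 stands out below among abundant transcripts. The lowest points are Gm17535 at -4.22 and Gm10717 at -4.02, whose highest liver was control replicate 2. Without that liver they were at -3.20 and -2.99.

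Por, NADPH-cytochrome P450 reductase, passes electrons to every microsomal P450 and is a target of CAR and PXR (ENSMUSG00000005514, chr5:135670033-135735326 in GRCm38). It stood at 32.6, 32.2, 44.4 and 48.4 CPM in the 0.03 mg/kg livers and 45.1, 52.5, 54.1 and 50.2 CPM in the 0.3 mg/kg livers, against 17.4, 15.8, 28.3 and 25.5 CPM in the control livers. All 8 low-dose livers lay above all 4 control livers, and the lowest of them were both at 0.03 mg/kg. The log2 difference was 1.04 (SE 0.17, adjusted p = 0.082 by edgeR), and 2 further probes of Por gave 1.07 (SE 0.25) and 0.60 (SE 0.34). Por was the only probe called when the 0.3 mg/kg livers were set alone against control (1 of 13484 probes, 0.00742%, log2 difference 1.21, SE 0.18, adjusted p = 0.0249 by edgeR). In the 0.03 mg/kg livers alone the difference was 0.85 (SE 0.18, adjusted p = 0.232). Against the same control livers, 15.6% of probes had an unadjusted p under 0.05 at 0.3 mg/kg (7.89% higher, 7.71% lower), and 0 passed the adjusted threshold at 0.03 mg/kg, where 6.07% did so unadjusted (3.38% higher, 2.68% lower). Leaving out 1 library at a time kept the pooled difference between 0.918 and 1.198, with adjusted p-values from 0.0201 to 0.309. A fit of all 20 libraries, with the same control livers, put Por at 1.98 (SE 0.34) at 3 mg/kg and 3.23 (SE 0.36) at 6 mg/kg.

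Cyp7a1, the cholesterol hydroxylase that limits the rate of bile acid production (ENSMUSG00000028240, chr4:6265612-6275633), had 29.3, 26.6, 31.3 and 14.3 CPM in the 0.03 mg/kg livers and 16.5, 17.3, 20.6 and 23.3 CPM in the 0.3 mg/kg livers, against 9.19, 7.57, 4.47 and 10.7 CPM in the control livers. The groups did not overlap, and 3 of the 4 highest livers were at the lower of the doses. The log2 difference was 1.5 (SE 0.25, adjusted p = 0.082), which ranged from 1.29 without control replicate 3 to 1.67 without control replicate 4. Fabp2, a fatty acid binding protein best known from intestine (ENSMUSG00000023057, chr3:122895072-122899506), had 1423, 1397, 1504 and 1206 CPM in the 0.03 mg/kg livers and 1334, 1133, 1211 and 1391 CPM in the 0.3 mg/kg livers, against 3027, 2462, 1794 and 1618 CPM in the control livers. The low-dose livers lay close together below the widely spread controls, of which replicates 1 and 2 were the highest. Its log2 difference was -0.75 (SE 0.13, adjusted p = 0.082), and -0.56 without control replicate 1.

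**Figure D3:**
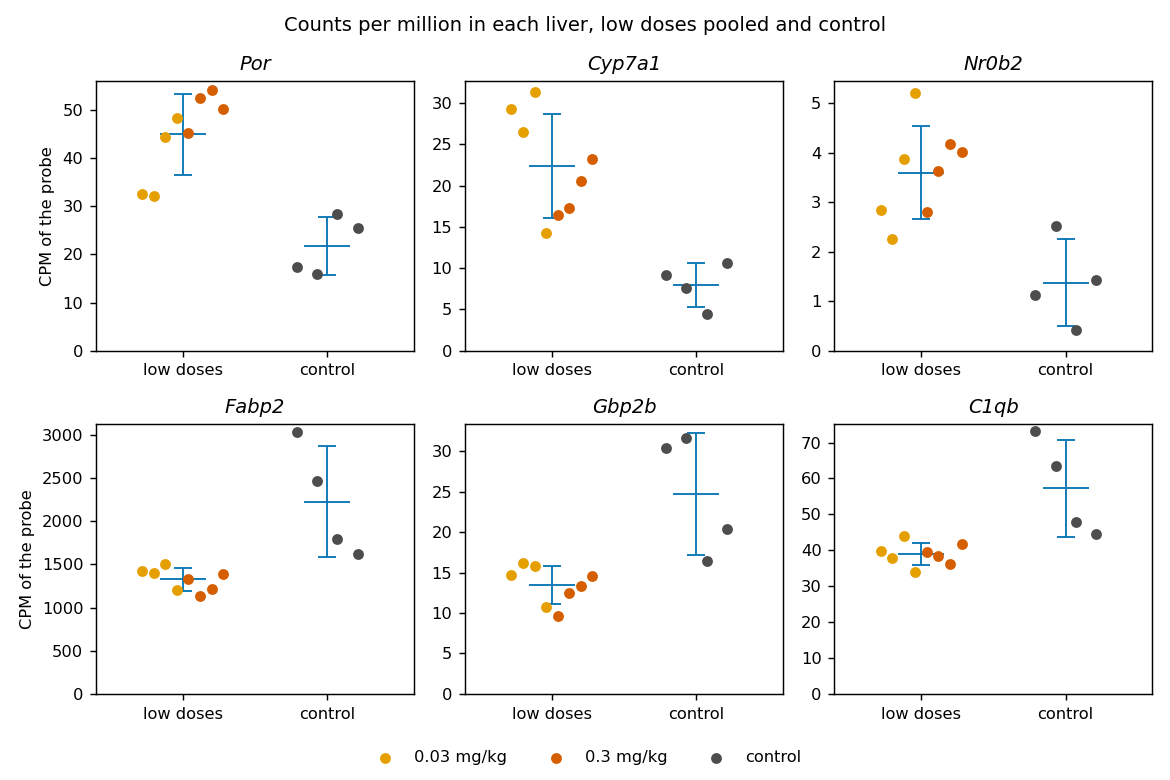
CPM in each liver for Por, Cyp7a1, Nr0b2, Fabp2, Gbp2b and C1qb, with the pooled low doses left (orange, 0.03 mg/kg; red-orange, 0.3 mg/kg) and control right, and blue bars for the mean and SD (n = 8 low-dose and 4 control livers). The groups are apart in Por, Cyp7a1, Fabp2, Gbp2b and C1qb, and overlap in Nr0b2, whose low-dose livers at 2.26 to 5.21 CPM reach below the highest control at 2.52 CPM.

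Targets of CAR and PXR were the group with most members higher. Of 59 listed genes 52 were tested, and 19 were higher and 2 lower at an unadjusted p under 0.05, beside 5.49% and 7.33% of all genes. None passed the adjusted threshold. The median log2 difference of the 52 was 0.25, beside -0.01 for all genes tested, and leaving out 1 library at a time kept the number higher between 15 and 21. The summed level of the 52 overlapped, at 18282 to 24028 CPM in low-dose livers and 17116 to 23000 CPM in control livers. After Por, the smallest p belonged to Aldh1a1, a retinaldehyde dehydrogenase, whose lowest, median and highest values were 15.8, 19.5 and 27.3 CPM in low-dose livers, against 10.8, 11.4 and 16.0 CPM in control livers. The groups overlapped by a single control liver, and the log2 difference was 0.71 (SE 0.17, unadjusted p = 0.000366, adjusted p = 0.209). Gsta1, a glutathione transferase, was at 26.0, 43.3 and 72.1 CPM in low-dose livers, against 20.0, 22.8 and 28.1 CPM in control livers (log2 difference 0.95, SE 0.27, adjusted p = 0.278). Cyp2a4, a steroid hydroxylase, had all 8 low-dose livers at 37.0 to 93.6 CPM, above the 4 control livers at 27.4 to 36.0 CPM (0.70, SE 0.23, adjusted p = 0.294). Cyp2c39 and Sult1d1 were the lower members, at -0.42 (SE 0.19) and -0.29 (SE 0.14), and the groups overlapped in each. Cyp2a4, Cyp3a41a, the guanylate-binding proteins and the class I genes have near-identical copies, so their values may include counts from a relative. Cyp3a11, the main PXR-regulated P450 of mouse liver, was at 975 to 2236 CPM in low-dose livers and 1164 to 1946 CPM in control livers, a log2 difference of 0.03 (SE 0.20). Its other probe averaged 446 CPM in low-dose livers and 353 CPM in control livers, a log2 difference of 0.34 (SE 0.13, unadjusted p = 0.0181, adjusted p = 0.323), and the groups overlapped in both probes.

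Aox1, an aldehyde oxidase, and Abcc3, a transporter of conjugates at the sinusoidal membrane, are counted among targets of NRF2, the oxidant-sensing transcription factor. In that group 8 of 42 tested members were higher and 1 lower, beside 5.49% and 7.33% of all genes, with a median log2 difference of 0.08. Of the 8 higher members 5, Abcc2, Abcc3, Ces1g, Gsta1 and Ugt2b35, are also on the CAR and PXR list. Without control replicate 2 the number higher was 5, and without control replicate 3 it was 12. The summed level of the NRF2 list had a median of 14958 CPM in low-dose livers and 14998 CPM in control livers, with overlap. Aox1 stood at 10.2 to 11.6 CPM in low-dose livers, above 7.15 to 9.44 CPM in control livers (0.46, SE 0.13, adjusted p = 0.266). Abcc3 was at 33.7 to 49.7 CPM against 26.2 to 35.4 CPM in control livers (0.45, SE 0.12, adjusted p = 0.266). Nqo1, a quinone reductase that NRF2 is best known for, was at 2.78 to 5.30 CPM in low-dose livers and 3.64 to 4.77 CPM in control livers (-0.13, SE 0.18).

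Of 28 tested bile acid genes 4 were higher and 2 lower, beside 5.49% and 7.33% of all genes, with a median of 0.08. The share lower was near that of all genes. The summed level of the list had a median of 14434 CPM in low-dose livers and 15482 CPM in control livers, with overlap. Apart from Cyp7a1, the higher members included Nr0b2, the small heterodimer partner that represses Cyp7a1 in the textbook feedback loop. Nr0b2 (chr4:133553376-133556536) was at 2.26, 3.74 and 5.21 CPM in low-dose livers, against 0.426, 1.27 and 2.52 CPM in control livers (1.43, SE 0.33, adjusted p = 0.209). Cyp8b1, the sterol 12-alpha-hydroxylase that sets the cholic acid share, was at 108, 159 and 201 CPM in low-dose livers, against 92.2 to 127 CPM in control livers (0.52, SE 0.15, adjusted p = 0.278), and its other probe gave 0.77 (SE 0.19). The lower members were Slc10a2, the sodium-dependent bile acid transporter, at -0.40 (SE 0.14) and Cyp2c70, the muricholic acid-forming hydroxylase of mouse, at -0.30 (SE 0.12). Both overlapped with control.

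Several sterol and fatty acid synthesis genes were higher. Of 28 tested genes of cholesterol synthesis and other SREBP2 targets, 9 were higher and 1 lower, beside 5.49% and 7.33% of all genes. The median log2 difference of the 28 was 0.27. Of 29 fatty acid synthesis genes 7 were higher and 0 lower, with a median of 0.15. Without control replicate 1 the counts higher were 4 and 4, and without control replicate 2 they were 5 and 4. The summed level of the cholesterol list had a median of 2786 CPM in low-dose livers and 2655 CPM in control livers, and that of the fatty acid list a median of 4575 CPM in low-dose livers and 4988 CPM in control livers, with overlap in both. Lss, lanosterol synthase, was at 11.6, 15.3 and 30.0 CPM in low-dose livers, against 7.08, 9.94 and 12.5 CPM in control livers (0.77, SE 0.24, adjusted p = 0.288). Sqle, squalene epoxidase, was at 19.6, 33.6 and 66.6 CPM, against 14.2, 19.7 and 26.9 CPM in control livers (0.86, SE 0.30, adjusted p = 0.31). Fasn, fatty acid synthase, was at 6.67, 8.89 and 11.7 CPM, against 3.35, 4.78 and 8.06 CPM in control livers (0.79, SE 0.22, adjusted p = 0.268), and Acly, which supplies its acetyl-CoA, at 90.5 to 158 CPM against 66.4 to 107 CPM in control livers (0.50, SE 0.14, adjusted p = 0.273). In each of these genes the groups overlapped. Ggps1, which makes geranylgeranyl diphosphate, was the lower member (-0.30, SE 0.13), and Hmgcs1 and Scd1 differed by 0.29 (SE 0.21) and 0.43 (SE 0.31), with the other Hmgcs1 probe at -0.0056 (SE 0.19).

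PPARalpha targets went both ways. Of 56 tested members 8 were higher and 7 lower, beside 5.49% and 7.33% of all genes, and the median was 0.02. That split moved with scaling and with the control livers, to 15 higher and 6 lower with a median of 0.12 under total counts alone, and to 5 and 4, 4 and 4, 9 and 13, and 4 and 10 without control replicates 1, 2, 3 and 4. The higher ones included Cpt1a, the gate of mitochondrial fatty acid entry, at 1.60 to 3.75 CPM in low-dose livers against 1.26 to 1.74 CPM in control livers (0.79, SE 0.27), and Cyp4a12b, a male-biased omega-hydroxylase, at 102 to 131 CPM against 89.9 to 104 CPM (0.28, SE 0.09). The lower ones, besides Fabp2, included Angptl4, a lipoprotein lipase inhibitor, at 157 to 256 CPM against 212 to 315 CPM in control livers (-0.40, SE 0.12). Cyp4a10, an omega-hydroxylase widely used as a readout of PPARalpha, was at 2.17, 5.24 and 10.8 CPM in low-dose livers, against 26.1, 32.4, 7.77 and 4.68 CPM in control livers (-1.63, SE 0.52, adjusted p = 0.302). Control replicates 1 and 2 were above every low-dose liver and control replicates 3 and 4 were within their range. Ehhadh, a peroxisomal oxidation enzyme, differed by 0.05 (SE 0.12). Fgf21, a hormone that PPARalpha controls, was at 0.325 to 1.76 CPM in low-dose livers and 0.745 to 5.46 CPM in control livers (-1.23, SE 0.46), which became -0.39 without control replicate 1.

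Genes of amino acid breakdown and the urea cycle were higher in 11 of 52 tested members and lower in 0, beside 5.49% and 7.33% of all genes, with a median of 0.08. Under total counts alone 20 were higher. The summed level of the list had a median of 24185 CPM in low-dose livers and 24039 CPM in control livers, with overlap. Aldh4a1, which completes proline breakdown (chr4:139622866-139649690), was at 47.7, 53.1 and 78.8 CPM in low-dose livers, against 35.3, 32.9, 44.2 and 34.5 CPM in control livers. The groups did not overlap, and the log2 difference was 0.60 (SE 0.13, adjusted p = 0.209). Tat, tyrosine aminotransferase, a classic glucocorticoid target, was at 3.01, 5.90 and 9.65 CPM, against 1.74, 1.68, 3.94 and 3.25 CPM in control livers (1.23, SE 0.29, adjusted p = 0.209). Ftcd, of histidine breakdown, differed by 0.50 (SE 0.15). Other genes with no overlap and low-dose livers higher were Tuba1c, an alpha-tubulin (0.59, SE 0.15), Lig3, a DNA ligase (0.47, SE 0.12), Ugt2b1, a glucuronosyltransferase (0.49, SE 0.13), Arf3, a trafficking GTPase (0.47, SE 0.13), and Pmpca, a mitochondrial processing peptidase subunit (0.39, SE 0.12). Their adjusted p-values ran from 0.251 to 0.278.

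Interferon-inducible genes were lower in part and none was higher. Of 51 listed genes 40 were tested, and 10 were lower and 0 higher at an unadjusted p under 0.05, beside 7.33% of all genes lower. The median log2 difference was -0.24 and 32 of the 40 were negative. Counts of lower members were 7 without control replicate 1, 8 without control replicate 2, 14 without control replicate 3 and 18 without control replicate 4. The summed level of the 40 genes ran from 868 to 1164 CPM in low-dose livers and was 1307, 1199, 1013 and 1003 CPM in control replicates 1 to 4. Several of the genes are guanylate-binding proteins, GTPases that interferon gamma induces in macrophages and hepatocytes, and their promoters carry binding sites for interferon-responsive factors. The promoters of 4 guanylate-binding protein genes are printed because these genes were lower together, with capitals for the motif GAAA, any 2 bases and GAAA again, searched on both strands, a core of the interferon-stimulated response element. Each runs from 250 bases before the annotated start to 50 after it (RefSeq, GRCm38.p6, plus strand), and Gbp2 and Gbp5 were picked after their values were seen.
Gbp2b, chr3:142594597-142594896: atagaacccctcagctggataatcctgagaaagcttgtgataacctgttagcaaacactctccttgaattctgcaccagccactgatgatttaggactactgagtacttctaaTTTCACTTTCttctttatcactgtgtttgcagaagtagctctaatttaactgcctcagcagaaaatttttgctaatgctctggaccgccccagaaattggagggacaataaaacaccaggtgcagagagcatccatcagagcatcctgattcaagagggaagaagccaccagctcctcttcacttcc
Gbp2, chr3:142620413-142620712: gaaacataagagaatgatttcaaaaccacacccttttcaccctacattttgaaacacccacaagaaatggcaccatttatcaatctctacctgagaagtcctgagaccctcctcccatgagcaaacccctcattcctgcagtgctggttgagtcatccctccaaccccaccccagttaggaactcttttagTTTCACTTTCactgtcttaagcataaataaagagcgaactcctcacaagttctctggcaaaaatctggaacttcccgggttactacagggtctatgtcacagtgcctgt
Gbp3, chr3:142559794-142560093: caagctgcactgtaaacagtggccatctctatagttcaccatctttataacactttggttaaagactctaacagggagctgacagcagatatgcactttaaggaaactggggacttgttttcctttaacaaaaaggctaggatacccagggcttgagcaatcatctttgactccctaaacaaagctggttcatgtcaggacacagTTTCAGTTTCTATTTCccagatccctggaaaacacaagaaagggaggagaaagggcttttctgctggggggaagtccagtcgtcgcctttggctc
Gbp5, chr3:142496684-142496983: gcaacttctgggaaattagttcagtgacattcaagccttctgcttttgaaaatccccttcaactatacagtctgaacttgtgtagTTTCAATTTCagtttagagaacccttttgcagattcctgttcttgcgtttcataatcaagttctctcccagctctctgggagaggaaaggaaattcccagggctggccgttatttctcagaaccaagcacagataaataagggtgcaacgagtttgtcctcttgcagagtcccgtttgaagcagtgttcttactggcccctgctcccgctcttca
The motif occurs in 1079 of 27025 genes with a promoter in that table (3.99%) and in 18 of the 30 tested interferon genes found there (60.0%). Of the 10 lower members, 8 were found and 4 hold it, Gbp2, Gbp3, Gbp5 and Tgtp1. Ifit2, Ifi44, Ifi44l and Ifi47 do not hold it, and Gbp2b is not on the interferon list and not in that count. The printed window of Gbp3 has 2 matches that overlap by 4 bases, and another annotated window of Gbp3 has 0. A match of letters describes the sequence and shows no binding.

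Gbp2b (ENSMUSG00000040264, chr3:142594847-142619179), which is not on the interferon list and was named for its lack of overlap, had 14.7, 16.2, 15.8 and 10.7 CPM in the 0.03 mg/kg livers and 9.68, 12.4, 13.3 and 14.6 CPM in the 0.3 mg/kg livers, against 30.4, 31.7, 16.4 and 20.4 CPM in the control livers. Control replicates 1 and 2 were highest, and control replicate 3 lay just above the low-dose livers. The log2 difference was -0.88 (SE 0.17, adjusted p = 0.116), between -1.03 and -0.74 when single libraries were left out. Gbp3, its neighbour, was at 7.59, 9.52 and 11.7 CPM in low-dose livers, against 20.2, 21.4, 12.1 and 10.1 CPM in control livers (-0.76, SE 0.18, adjusted p = 0.209). A second probe of Gbp3 gave -0.78 (SE 0.20) and another, near 1.6 CPM, -0.04 (SE 0.31). Gbp2 and Gbp5 differed by -0.75 (SE 0.22) and -0.84 (SE 0.23). Ifit2, an antiviral tetratricopeptide protein, had all 8 low-dose livers at 2.28 to 4.43 CPM, below the 4 control livers at 4.55 to 6.83 CPM (-0.79, SE 0.19, adjusted p = 0.209), and its other probe gave -0.32 (SE 0.26).

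Antigen presentation genes and markers of immune cells were lower in part. Of all genes, 7.33% were lower and 5.49% higher at an unadjusted p under 0.05. Among 18 tested antigen presentation and immunoproteasome genes 4 were lower and 1, the class I gene H2-D1, higher (0.29, SE 0.13), with a median of -0.20. Their summed level was 1575 to 1763 CPM in low-dose livers and 1820 to 2119 CPM in control livers, without overlap. Cd74, the invariant chain of class II molecules, was at 9.22, 24.3 and 31.5 CPM in low-dose livers, against 52.8, 43.6, 30.7 and 35.0 CPM in control livers (-0.77, SE 0.23, adjusted p = 0.288). H2-T23, a nonclassical class I gene, was at 193 to 302 CPM against 280 to 351 CPM in control livers (-0.31, SE 0.10). Of 17 tested Kupffer cell markers 4 were lower and 0 higher (median -0.09), with a summed level of 342 to 443 CPM in low-dose livers and 376 to 512 CPM in control livers. C1qb, a complement subunit made by macrophages (chr4:136880129-136886187), had 39.8, 37.9, 43.9 and 34.1 CPM at 0.03 mg/kg and 39.4, 38.4, 36.3 and 41.9 CPM at 0.3 mg/kg, against 73.1, 63.3, 47.8 and 44.6 CPM in control livers. It did not overlap (-0.55, SE 0.12, adjusted p = 0.209), but its other probe overlapped and gave -0.16 (SE 0.13). The defining Kupffer markers Clec4f and Cd5l were at 4.01 to 9.05 and 28.5 to 38.3 CPM in low-dose livers, against 5.19 to 6.60 and 28.6 to 38.4 CPM in control livers. Ctss, a lysosomal protease of antigen-presenting cells, differed by -0.54 (SE 0.15).

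All 10 tested lymphocyte and neutrophil markers were negative, with a median of -0.70. At an unadjusted p under 0.05, 4 were lower, beside 7.33% of all genes. None was lower without control replicate 1, where the median was -0.33, and 2, 5 and 7 were without control replicates 2, 3 and 4. Their summed level was 14.7 to 23.9 CPM in low-dose livers and 55.1, 30.7, 18.8 and 18.2 CPM in control replicates 1 to 4. Igkc, the immunoglobulin kappa constant region, was at 4.04 to 7.38 CPM in low-dose livers, against 18.1, 10.2, 5.64 and 6.24 CPM in control livers (-0.89, SE 0.26), and Jchain, which joins secreted antibody units, at 1.78 to 6.00 CPM against 15.4, 5.75, 3.94 and 4.81 CPM (-0.95, SE 0.34). Without control replicate 1, Igkc was at -0.43 and Jchain at -0.32. Cd3e, a T cell marker, was near 0 throughout, at up to 0.542 CPM in low-dose livers and 0.621 CPM in control livers. The same control livers, replicates 1 and 2, were the highest for immune markers, for Fabp2 and for Cyp4a10, and the part of the immune cell content in those results was not tested. Lpar6, a lysophosphatidic acid receptor (chr14:73237895-73243294), had all 8 low-dose livers at 20.8 to 33.8 CPM, below the controls at 37.8 to 53.1 CPM (-0.72, SE 0.14, adjusted p = 0.14). Stap1, an adaptor protein, was at 13.9 to 18.7 CPM against 19.0 to 29.2 CPM (-0.60, SE 0.13, adjusted p = 0.209).

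Further genes with all 8 low-dose livers below control were Sgk2, a kinase (-0.32, SE 0.09), Amz2, a metallopeptidase (-0.39, SE 0.11), Rtca, an RNA cyclase (-0.33, SE 0.09), Ctsz, a lysosomal protease (-0.32, SE 0.09), Ctsc, another lysosomal protease (-0.37, SE 0.11), Pparg, a nuclear receptor (-0.64, SE 0.22), and Cela1, an elastase (-0.76, SE 0.21). Their adjusted p-values lay between 0.266 and 0.294. Other probes of these genes gave 0.0089 (SE 0.22) for Sgk2, -0.29 (SE 0.25) for Pparg, and -0.14 (SE 0.19) and -0.84 (SE 0.23) for Ctsc. Immediate-early genes, which respond within minutes to growth and stress signals, were lower in 3 of 19 tested members and higher in 0. Of all genes, 7.33% were lower and 5.49% higher. The summed level of the immediate-early genes did not overlap, at 238 to 261 CPM in low-dose livers against 275 to 307 CPM in control livers. Ier2 was at 31.2 to 46.9 CPM against 47.6 to 58.7 CPM (-0.36, SE 0.11, adjusted p = 0.278). Gadd45g, a growth arrest gene, was at 0.759 to 5.29 CPM against 18.3, 4.20, 24.5 and 4.03 CPM in control livers (-2.05, SE 0.51, adjusted p = 0.273), with the high controls being replicates 1 and 3. Of 45 listed cell cycle genes only 19 had enough counts to be tested, and 0 of these had an unadjusted p under 0.05 in either direction.

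Ribosomal protein genes were lower in 20 of 74 tested members and higher in 2, beside 7.33% and 5.49% of all genes, with a median of -0.17. Oxidative phosphorylation genes were lower in 10 of 70 and higher in 2, with a median of -0.05. Both counts moved with the control livers: without control replicate 1, 2 ribosomal and 0 oxidative phosphorylation genes were lower, and without control replicate 2, 10 and 4. Without control replicate 3, 33 ribosomal genes were lower, and without control replicate 4, 31. The summed ribosomal level was 13733 to 17382 CPM in low-dose livers and 21073, 18083, 14653 and 14782 CPM in control replicates 1 to 4. Scaled by total counts alone, the ribosomal count was 6 lower and 2 higher, and oxidative phosphorylation turned to 8 higher and 1 lower, with a median of 0.05. Rpl14 and Rps23 differed by -0.35 (SE 0.10) and -0.46 (SE 0.14), Ndufb5 and Sdhc, of respiratory complexes I and II, by -0.36 (SE 0.12) and -0.26 (SE 0.09). The other probes of Ndufb5 and Sdhc gave 0.015 (SE 0.14) and 0.25 (SE 0.16). Rps14, at 0.998 to 2.98 CPM in low-dose livers and 0.639 to 1.54 CPM in control livers, was among the higher (0.83, SE 0.34).

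Genes under growth hormone control, which differ by sex in mouse liver, went both ways. Each list count that follows stands beside 5.49% higher and 7.33% lower of all genes. Of 33 male-biased genes 6 were higher and 1, Cish, a cytokine signalling inhibitor, lower, and of 19 female-biased genes 4 were higher and 3 lower. With single libraries left out, 3 to 9 male-biased genes were higher, and 1 to 6 female-biased genes were lower. Sult2a1, a female-biased sulfotransferase, was at 2.80 to 22.3 CPM in low-dose livers against 73.6, 33.2, 10.2 and 6.89 CPM in control livers (-2.03, SE 0.73), which became -1.13 without control replicate 1, and Cyp3a41a, a female-biased P450, at 401 to 584 CPM against 371 to 446 CPM (0.32, SE 0.11). Hsd3b5, a male-specific steroid enzyme, differed by 0.13 (SE 0.10). None of the 13 tested major urinary protein genes had an unadjusted p under 0.05 in either direction, and their share of all counts was 5.91% to 18.8% in low-dose livers and 12.1% to 21.1% in control livers (difference -1.49 percentage points, two-sided exact permutation p = 0.578). Dbp, a clock output gene, was at 12.6 to 137 CPM against 18.5 to 62.4 CPM (0.76, SE 0.64). Of the other cell type lists, endothelial markers had 3 of 24 higher, among them Eng (0.38, SE 0.16), and 0 lower, although 15 of the 24 were negative and the median was -0.03. The number higher was 1 to 6 with single libraries left out. Erythroid markers had 2 of 7 higher, Hba-a2 (0.95, SE 0.35) and Alas2 (0.51, SE 0.23), and 0 lower, with 0 to 4 higher when single libraries were left out. The defining erythroid markers Hba-a1 and Hbb-bs were near the floor. Their medians were 0.352 and 0.139 CPM in low-dose livers, against 0.532 and 0.106 CPM in control livers. The complement and coagulation list gave 1 higher of 48, the probe for C4b (0.71, SE 0.25), matched from the listed C4a, a near-identical copy, and 2 lower. Among 26 acute phase genes Saa3 alone was lower (-1.03, SE 0.37), which became -0.24 without control replicate 2. Hepatocyte markers gave 4 of 28 higher, among them Rbp4, the retinol carrier (0.37, SE 0.12), and 2 lower, among them Alb (-0.28, SE 0.13), with 2 to 6 higher and 0 to 4 lower when single libraries were left out. Cyp1a2, a pericentral P450, was higher at 0.48 (SE 0.14), while the pericentral list gave 3 of 22 higher and 1 lower, with a median of 0.004. The periportal list gave 3 of 22 higher and 3 lower, with a median of 0.18. Among p53 targets 3 of 13 were lower, among them Ccng1 (-0.26, SE 0.11). Stress response genes gave 2 of 25 higher and 1 lower, chaperones 1 of 23 lower, clock genes 3 of 17 higher, glucose genes 3 of 33 higher and 1 lower, and stellate genes 3 of 27 higher and 2 lower, beside 5.49% higher and 7.33% lower of all genes. With single libraries left out the numbers higher were 0 to 4 for stress response, 0 to 5 for clock and 0 to 6 for glucose genes, with 0 in each of the 3 lists without control replicate 1. Iron genes and cholangiocyte markers gave 0 in either direction, of 20 and 4.

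**Figure D4:**
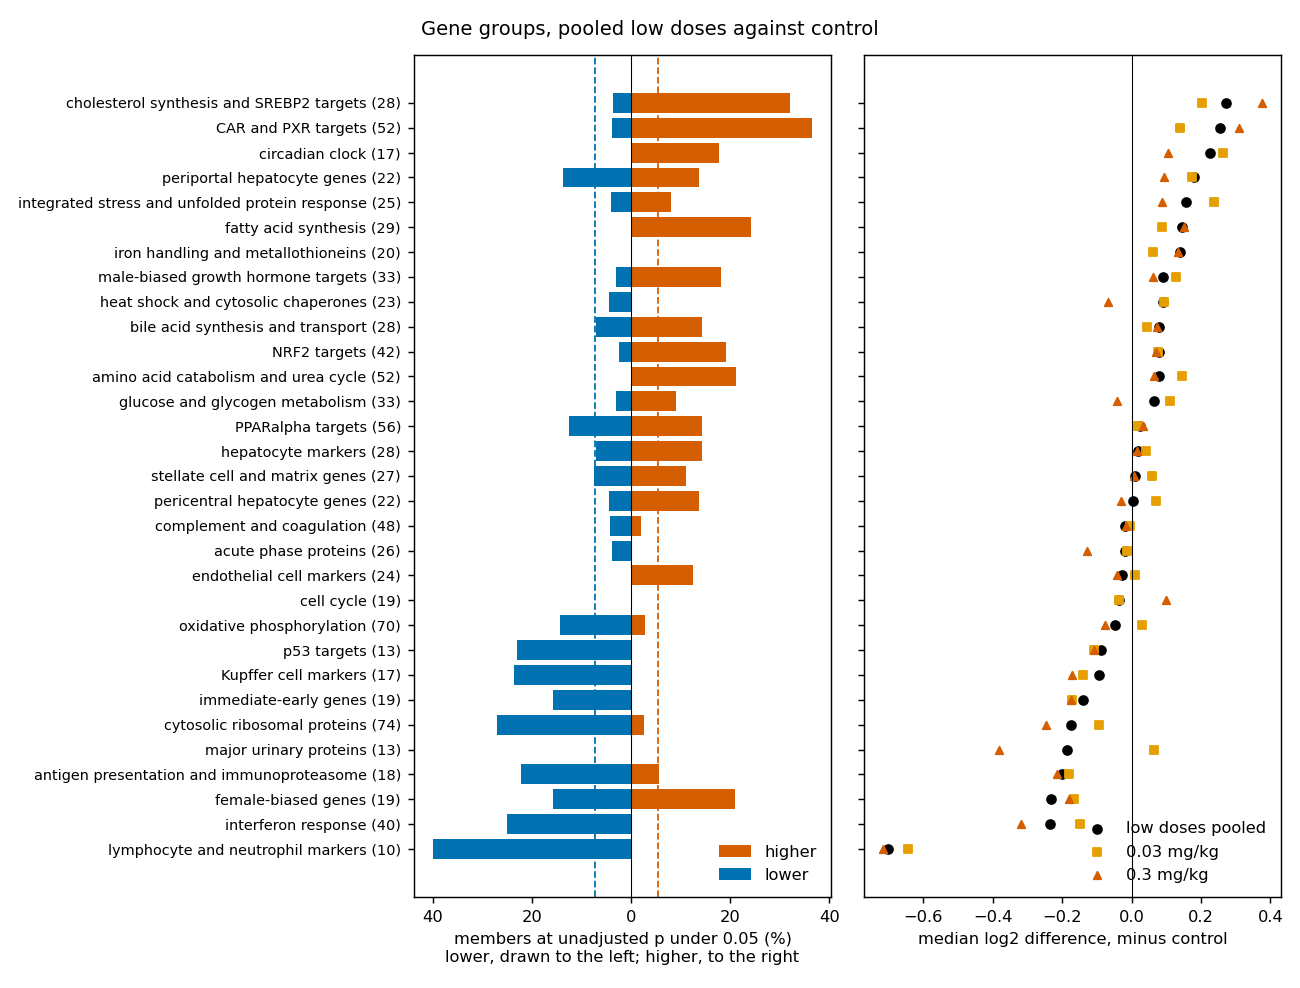
Left, the percent of tested members of each gene list (number tested in brackets, lists of 10 or more) higher (right) or lower (left) at an unadjusted p under 0.05, with dashed lines at the 5.49% and 7.33% of all genes; right, the median log2 difference from control for the pooled low doses and for each dose in a fit with separate means. CAR and PXR targets, with 19 of 52 higher, and interferon response genes, with 10 of 40 lower, are among the lists beyond the dashed lines, and the doses share their control livers.

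The doses within the pooled group were also set against each other. Between 0.3 and 0.03 mg/kg 0 of 13484 probes (0%) passed edgeR's adjusted threshold, with a smallest adjusted p of 0.423, and 793 (5.88%) had an unadjusted p under 0.05, 420 (3.11%) higher and 373 (2.77%) lower. DESeq2 called 15. Cyp2b10, the P450 that responds most to CAR in mouse (chr7:25897620-25926624), was at 107, 95.0, 41.8 and 75.5 CPM in control livers, 126, 87.7, 84.5 and 45.2 CPM at 0.03 mg/kg and 256, 200, 269 and 288 CPM at 0.3 mg/kg. All 0.3 mg/kg livers were above all others, while the 0.03 mg/kg livers overlapped the controls. The log2 difference of 0.3 against 0.03 mg/kg was 1.56 (SE 0.33, unadjusted p = 0.000606, adjusted p = 0.584). Pooled, Cyp2b10 was at 1.09 with an SE of 0.52 (unadjusted p = 0.0632). Alas1, the first enzyme of heme synthesis, chosen after its values were seen, was at 20.1, 11.8, 56.7 and 13.4 CPM in control livers, up to 58.2 CPM at 0.03 mg/kg and 129, 34.1, 116 and 148 CPM at 0.3 mg/kg. Among CAR and PXR targets 12 were higher and 1 lower at 0.3 against 0.03 mg/kg at an unadjusted p under 0.05, beside 3.08% and 2.99% of all genes.

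Other genes were named because their 0.3 and 0.03 mg/kg livers did not overlap, and they went in both directions. How many of all genes lacked overlap between these doses was not counted, and with 4 livers each some would by chance. Aacs, which activates acetoacetate for lipid synthesis, averaged 69.3 ± 8.82 CPM at 0.3 mg/kg and 36.4 ± 12.8 CPM at 0.03 mg/kg (SD, n = 4 each), a log2 difference of 0.93 (SE 0.20). Mier3, Nceh1 and Msto1 were higher by 0.45 (SE 0.11), 0.45 (SE 0.13) and 0.44 (SE 0.12). Slc25a15, the mitochondrial ornithine carrier of the urea cycle, averaged 8.09 ± 0.926 CPM at 0.3 mg/kg and 15.2 ± 4.19 CPM at 0.03 mg/kg (SD, n = 4 each), with control at 7.35 to 8.83 CPM, so that the 0.03 mg/kg livers were the ones apart from the rest. Gnmt, a glycine methyltransferase, was likewise at 406 to 588 CPM at 0.03 mg/kg, against 327 to 351 CPM at 0.3 mg/kg and 285 to 331 CPM in control livers. Oat, ornithine aminotransferase, averaged 137 ± 16.8 CPM at 0.3 mg/kg and 203 ± 32.0 CPM at 0.03 mg/kg (SD, n = 4 each). Pet100 and Rgs5 were lower at 0.3 mg/kg by -0.61 (SE 0.14) and -0.51 (SE 0.12) on the log2 scale. Among amino acid and urea cycle genes 7 of 52 were lower and 0 higher at 0.3 against 0.03 mg/kg, beside 2.99% and 3.08% of all genes. The adjusted p-values of all 10 genes were 0.423 or more.

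**Figure D5:**
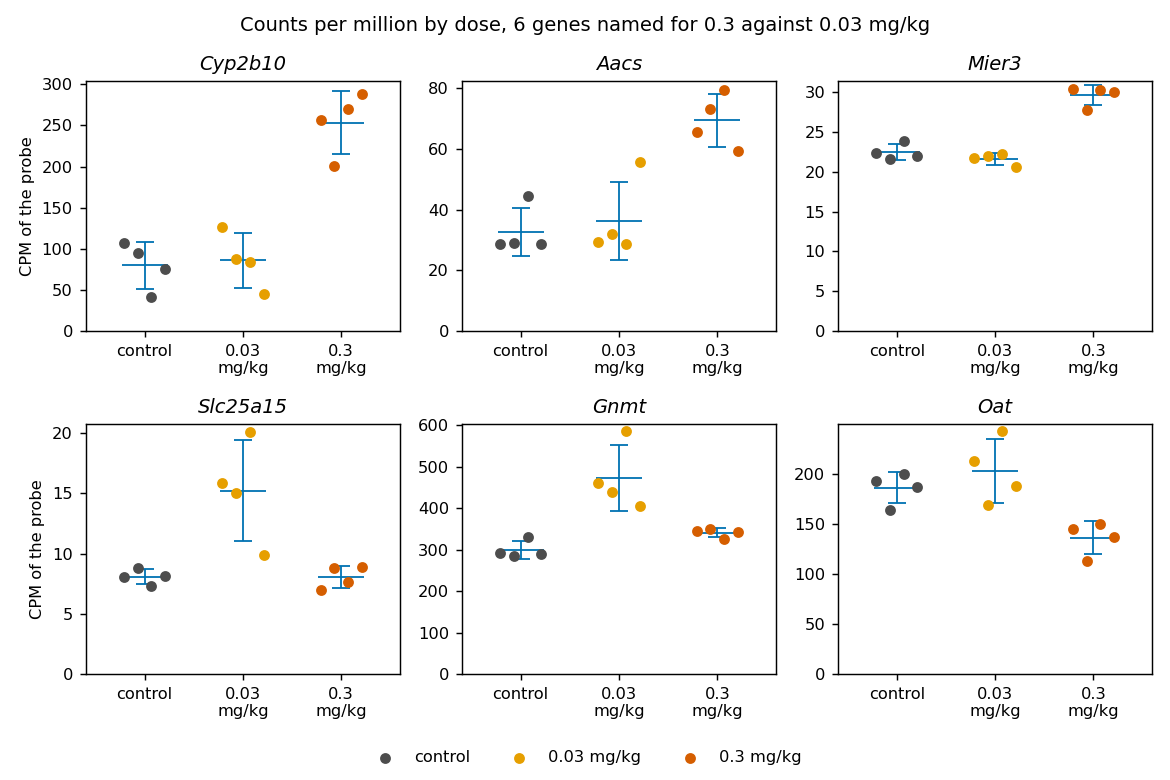
CPM in each control, 0.03 mg/kg and 0.3 mg/kg liver for Cyp2b10, Aacs, Mier3, Slc25a15, Gnmt and Oat, with blue bars for the mean and SD (n = 4 livers each). Cyp2b10, Aacs and Mier3 are highest at 0.3 mg/kg, Slc25a15 and Gnmt at 0.03 mg/kg, and none of these passed the adjusted threshold.

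At higher doses the same genes can be read in a fit of all 20 libraries against the same 4 control livers, so the low-dose values are set beside them without a test. Gsta1 was at 3.37 (SE 0.62, adjusted p = 0.00657) at 3 mg/kg and 6.09 (SE 0.70, adjusted p = 8.59e-06) at 6 mg/kg on the log2 scale, beside 0.95 in the pooled low doses. Cyp2c55, another CAR and PXR target, was at 3.66 (SE 0.63) and 5.40 (SE 0.68), beside 0.53 (SE 0.54), which became 1.04 without control replicate 1. Cyp4a10 stood at 1.93 (SE 0.69, adjusted p = 0.235) and 4.21 (SE 0.75, adjusted p = 0.000692), beside the low-dose -1.63. Gadd45b, a stress-inducible growth arrest gene, was at 3.23 (SE 0.36) and 5.65 (SE 0.38), beside -0.35 (SE 0.33), which ran from -0.57 without control replicate 3 to -0.036 without control replicate 2. Cyp7a1 was at 3.65 (SE 0.86) and 3.01 (SE 0.84), beside 1.5. Gbp2b and C1qb were at -0.57 (SE 0.22) and -0.39 (SE 0.21) at 3 mg/kg and -1.30 (SE 0.22) and -1.18 (SE 0.22) at 6 mg/kg, whereas Stap1 was at -0.02 (SE 0.19) and 0.07 (SE 0.19), beside -0.60. Pdk4, a switch of glucose oxidation, was at 0.68 at 3 mg/kg and 2.29 at 6 mg/kg, beside 0.17 (SE 0.50) at the low doses.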

How the data were processed

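Raw counts for each probe were deposited by the authors; the submitters' processing notes name Bowtie and GRCm38.p5 without their settings. Livers were kept in RNAlater and their RNA was extracted with Trizol and purified with RNeasy, per the labels' protocols. Groups came from the dose in the labels, and nothing pairs the mice. Of 30146 probes for 21450 symbols, 13484 passed edgeR's filterByExpr and were tested with edgeR 4.0.16 in R 4.3.3 (robust quasi-likelihood F-test, TMM factors, Benjamini-Hochberg adjustment, threshold 0.05). SE is the log2 difference divided by the root of F. CPM uses TMM-scaled library sizes, in which 3 counts equal 0.250 to 0.420 CPM, and SEs include the spread between animals. The probe with the highest mean count stands for its gene.

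Named genes were up to 10 per direction with no overlap and a mean of 10 CPM or more, up to 2 per list and direction, a fixed set of sentinels, and up to 5 per direction between the doses; others are said to be chosen after their values were seen. 1 gene of the sentinel set is not reported here. Members, lists (35, with 1213 genes) and tests were chosen with earlier results of these data known. Alternatives used limma 3.58.1, DESeq2 1.42.0, other scalings and filters, and leaving out each library. No libraries were copies of each other by a chi-square comparison. Gene positions are GENCODE M21, and probe positions were not used here. The scripts were tested on simulated data.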

Additional observations from a re-analysis of the deposited data

Results flagged for a closer look

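Of 182 groups of values examined, 10 held a liver far from the rest of its group, and chance flags about 1 in 20 groups. In 0.03 mg/kg replicate 3, Aldh4a1 was at 78.8 CPM, against 47.7 to 59.1 in the other low-dose livers, and Ugt2b1 at 63.2 CPM, against 37.6 to 48.5. In 0.03 mg/kg replicate 4, Cyp2a4 was at 93.6 CPM, against 37.0 to 60.9, and Cd74 at 9.22 CPM, against 21.4 to 31.5. In 0.3 mg/kg replicate 2, Lss was at 30.0 CPM, against 11.6 to 19.9, and Hmgcs1 at 415 CPM, against 152 to 269. Cish was at 2.19 CPM in 0.3 mg/kg replicate 1, against 0.217 to 0.5 in the other low-dose livers. Among controls, Jchain was at 15.4 CPM in replicate 1, against 3.94 to 5.75, and control replicate 3 had Aacs at 44.6 CPM, against 28.6 to 28.9, and Gnmt at 331 CPM, against 285 to 292. None of 91 genes examined for a difference between 0.3 and 0.03 mg/kg passed the adjusted threshold (0 of 91).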

How the results depend on the processing

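The count of 0 calls for the pooled low doses became 5 with total counts alone, 187 with no filter on low counts, 57 with DESeq2, 4 with the quasi-likelihood fit not robust and 1 with 0.3 mg/kg alone, and was 0 to 4 when single libraries were left out, the highest without control replicate 3. Of the 187, 162 were lower, of which 142 were probes under the filter and 75 were olfactory or vomeronasal probes. With control replicate 2 left out, chosen after seeing the data, the unfiltered count was 6 and the DESeq2 count 4. Between 0.3 and 0.03 mg/kg the count of 0 became 2 with no filter and 15 with DESeq2, 0 to 3 with single libraries left out (3 without 0.03 mg/kg replicate 4), and, without control replicate 2, 28 with no filter and 1 with DESeq2. The cause was not tested. Of 2386 values for 96 genes under the alternatives, 2313 kept direction and side of the threshold, 51 passed it newly and 22 in 13 genes turned sign. The main fit called 0 probes, so no value could lose a call, and a value without an adjusted p was judged by direction alone. These counts therefore do not show how far the log2 differences moved. Pdk4 was at -0.015 with limma-voom. At 0.03 mg/kg alone Cyp2c55 was at -0.40, Hmgcs1 -0.048, Nqo1 0.0046, Mier3 -0.056, Msto1 -0.19, Nceh1 -0.15, Oat 0.13, Pet100 0.16 and Rgs5 0.059, and at 0.3 mg/kg alone Slc25a15 was at -0.0024. With single libraries left out Cyp3a11 ranged from -0.085 to 0.16, Ehhadh from -0.034 to 0.15, Pdk4 from -0.033 to 0.57 and Msto1 from -0.011 to 0.092. No paired analysis was possible because the labels carry no replicate numbers. Depth limits probes near 3 counts, and 4 control livers limit every comparison.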
